A study of Mus musculus with 24 samples.

Results

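The genes followed here are 38 genes of glycolysis and of the response to low oxygen, taken by gene symbol from a fixed list. The list was chosen with earlier results of these data known, so its counts are not independent of them. Both expression tables held a row for each of the 38 symbols, of 22996 genes in the table of bone marrow-derived macrophages (BMDMs) and 54380 in the table of the J774.1 line. Aldoa stood under 2 identifiers in the BMDM table, which makes 39 rows, and the second of these never passed 1.37 TPM. Levels are in TPM, which scales reads by transcript length and by library total, so levels of different genes can be set side by side within a table. Of the 38 genes, 29 in either table averaged 10 TPM or more and were tested, and the other 9 are given by level.

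RNA was measured in 24 libraries, 3 in each of 8 groups, to follow the co-repressors CtBP1 and CtBP2 in inflamed mouse macrophages. BMDMs were grown in L929-conditioned medium from marrow of male C57BL6/N mice aged 6-12 weeks and transfected with Ctbp2 siRNA, Ctbp1 siRNA or control siRNA, where an siRNA is a small duplex that triggers cleavage of a matching mRNA. Each siRNA was combined with lipopolysaccharide (LPS) at 100 ng/ml, a bacterial cell wall component that starts an inflammatory response, or with PBS vehicle, for 4 h. The macrophage line J774.1, from a female BALB/c mouse, was labelled as a double knockout (dKO) of Ctbp1 and Ctbp2 or as wildtype. Both J774.1 groups received 100 ng/ml LPS for 4 h, so that line has no vehicle group. The labels do not say whether the dKO cells are 1 clone, nor, beyond calling the triplicates biological, whether they came from separate animals or cultures. What the p-values weigh is thus the scatter among these libraries, which may be technical. BMDM replicates are numbered 1, 3 and 4, and values of 3 libraries are given in that order, or as 1, 2 and 3 for J774.1.

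Glycolysis turns glucose into pyruvate in the cytosol and yields ATP and NADH, and lactate dehydrogenase uses that NADH to turn pyruvate into lactate. The transcription factor HIF-1α is marked for destruction by oxygen-dependent prolyl hydroxylases of the EGLN family, and it switches on glycolytic genes when oxygen is low. LPS is known to raise HIF-1α and glycolysis in macrophages also in normal oxygen. CtBP proteins bind NADH, which links these co-repressors to the glycolytic state of a cell.

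Promoter sequences are shown for the 5 genes called higher with Ctbp2 siRNA than with control siRNA in LPS-treated BMDMs. The 5 were picked by these calls, and only that of Hk2 held whichever library was left out. Sequences are also shown for Slc2a6 and Pfkl, which were higher with LPS and lack the first motif below. They are RefSeq sequences on GRCm38.p6, from 250 bases before to 50 bases after each gene's start, while the BMDM table is on mm39 and the build of the J774.1 table is not given in the sources used here. Capitals mark ACGTG, the core of the motif that HIF-1 binds, and its variant GCGTG, each on either strand (CACGT and CACGC on the other). The Slc2a1 window is chr4:119108495-119108794 (+ strand) and the Hk2 window chr6:82774405-82774704 (- strand). The Pgk1 window is chrX:106186850-106187149 (+ strand), that of Slc16a3 chr11:120948817-120949116 (+ strand) and that of Hif1a chr12:73907617-73907916 (+ strand). For Slc2a6 it is chr2:27027949-27028248 (- strand) and for Pfkl chr10:78009758-78010057 (- strand).
Slc2a1: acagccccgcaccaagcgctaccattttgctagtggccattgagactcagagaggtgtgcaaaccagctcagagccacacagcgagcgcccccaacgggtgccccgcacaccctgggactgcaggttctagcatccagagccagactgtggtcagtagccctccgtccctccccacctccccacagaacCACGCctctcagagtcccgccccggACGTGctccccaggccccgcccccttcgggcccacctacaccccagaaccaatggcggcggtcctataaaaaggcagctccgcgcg
Hk2: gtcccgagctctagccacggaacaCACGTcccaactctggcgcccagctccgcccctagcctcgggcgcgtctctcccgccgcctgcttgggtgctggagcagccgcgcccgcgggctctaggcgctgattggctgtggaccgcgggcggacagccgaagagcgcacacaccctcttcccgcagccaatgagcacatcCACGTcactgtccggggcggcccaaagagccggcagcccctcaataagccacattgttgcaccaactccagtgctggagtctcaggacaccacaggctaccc
Pgk1: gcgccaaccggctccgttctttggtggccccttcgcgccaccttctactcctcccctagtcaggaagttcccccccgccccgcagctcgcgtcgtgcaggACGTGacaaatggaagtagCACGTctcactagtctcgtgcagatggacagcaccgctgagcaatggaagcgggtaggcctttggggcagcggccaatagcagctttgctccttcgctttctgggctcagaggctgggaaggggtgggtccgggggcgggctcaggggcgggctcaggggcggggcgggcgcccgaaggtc
Slc16a3: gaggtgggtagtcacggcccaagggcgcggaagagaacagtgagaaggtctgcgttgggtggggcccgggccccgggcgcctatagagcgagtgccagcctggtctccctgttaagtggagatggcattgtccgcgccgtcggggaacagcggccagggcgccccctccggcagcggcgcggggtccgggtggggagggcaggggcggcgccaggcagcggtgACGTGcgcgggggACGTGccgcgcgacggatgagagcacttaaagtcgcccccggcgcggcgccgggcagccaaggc
Hif1a: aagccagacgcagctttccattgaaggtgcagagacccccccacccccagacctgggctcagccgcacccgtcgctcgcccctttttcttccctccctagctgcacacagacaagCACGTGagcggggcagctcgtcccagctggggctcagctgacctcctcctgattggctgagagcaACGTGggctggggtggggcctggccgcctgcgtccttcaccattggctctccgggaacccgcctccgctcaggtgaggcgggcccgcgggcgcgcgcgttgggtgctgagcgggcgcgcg
Slc2a6: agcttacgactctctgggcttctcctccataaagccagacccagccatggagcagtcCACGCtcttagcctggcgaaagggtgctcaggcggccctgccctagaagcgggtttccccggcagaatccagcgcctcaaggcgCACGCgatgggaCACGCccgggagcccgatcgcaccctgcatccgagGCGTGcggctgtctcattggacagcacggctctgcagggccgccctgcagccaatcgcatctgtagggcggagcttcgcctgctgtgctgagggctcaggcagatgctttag
Pfkl: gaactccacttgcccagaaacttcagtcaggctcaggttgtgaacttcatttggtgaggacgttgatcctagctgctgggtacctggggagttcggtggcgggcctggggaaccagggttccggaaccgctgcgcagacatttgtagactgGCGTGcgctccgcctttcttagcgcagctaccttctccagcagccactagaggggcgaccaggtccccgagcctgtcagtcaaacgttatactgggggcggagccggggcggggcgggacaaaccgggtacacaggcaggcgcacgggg

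All 5 genes higher with Ctbp2 siRNA hold ACGTG in this window: once in Slc2a1, 2 times in Hk2, Pgk1 and Slc16a3, and 3 times in Hif1a, where a pair of the matches overlaps in the palindrome CACGTG. Slc2a6 has GCGTG 4 times and Pfkl once. Promoters of 36 of the 38 genes were in the table used, all but Bnip3l and Ndrg1. ACGTG stood in 26 of the 36 (72.2%), and in 21.8% of all 27025 genes with such a window. GCGTG stood in 24 of the 36 (66.7%), and in 35.2% of all genes. The list contains textbook targets of HIF-1α, so the share is no independent result. ACGTG stood in 6 of the 9 genes that were higher with LPS in control siRNA BMDMs and in 11 of the 16 matched genes that were lower. A match is only a run of letters and shows no binding.

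The siRNA targets were lower in the matching libraries. Ctbp2 had 13.8, 10.4 and 12.3 TPM with Ctbp2 siRNA and LPS, against 37.4, 36.9 and 40.3 TPM with control siRNA and LPS. Ctbp1 had 56, 48.5 and 48.1 TPM with Ctbp1 siRNA and LPS, against 117, 119.9 and 131 TPM with control siRNA and LPS. In J774.1 cells Ctbp1 had 21.3, 22.3 and 16.1 TPM in dKO libraries, against 156, 164 and 161 TPM in wildtype libraries. Ctbp2 had 64.1, 61.5 and 63.6 TPM in dKO libraries, against 81.4, 74.4 and 78.7 TPM in wildtype libraries. Most of the Ctbp2 transcript was thus still present in the cells labelled dKO, and whether protein was lost cannot be read from these tables. All 8 macrophage markers averaged at least 1 TPM in every BMDM group, with summed levels of 12458 to 15783 TPM per library, and 7 of 8 did in J774.1 cells (2392 to 2650 TPM in dKO and 3061 to 3124 TPM in wildtype libraries). Summed neutrophil markers reached 60.3 to 167 TPM in BMDMs and at most 0.386 TPM in J774.1 cells. Summed stromal markers were 4.11 to 7.6 TPM in LPS libraries of BMDMs and at most 0.168 TPM in vehicle libraries, with 1 of 6 markers at 1 TPM or more; their part in the results was not tested. In these bulk libraries, fewer cells of a type and less RNA per cell cannot be told apart. Control LPS replicate 4 stood apart most, with 3 of the 29 tested genes more than 0.3 log2 units from the mean of its group's other libraries, and results that rest on it are given with and without it. The library kit did not record strand, so reads of overlapping genes on opposite strands cannot be told apart.

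The isoforms of several glycolytic steps differed in their shares between the cell kinds. The tables were normalised separately, so these levels stand side by side without a test. Hk3, the hexokinase typical of myeloid cells, made up 77.1% to 80.6% of the summed Hk1, Hk2 and Hk3 TPM in the means of the 6 BMDM groups, and 4.27% in dKO and 2.86% in wildtype J774.1 cells. Hk2, the inducible hexokinase, made up 3.69% to 5.75% in BMDMs, and 63.4% in dKO and 64.1% in wildtype J774.1 cells. BMDMs thus carried mostly Hk3 and J774.1 cells mostly Hk2. Of the 2 lactate transporters, Slc16a1 (MCT1) made up 2.47% to 9.82% of the pair's TPM in BMDM groups, and 46.3% in dKO and 42.1% in wildtype J774.1 cells. Ldhb, the subunit that favours pyruvate formation, had 2.55 to 5.51 TPM in the means of BMDM groups and was listed at 0 in all 6 J774.1 libraries. Egln3, an oxygen-sensing hydroxylase, averaged at most 0.767 TPM in BMDM groups and was also listed at 0 in J774.1 libraries.

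**Figure D1:**
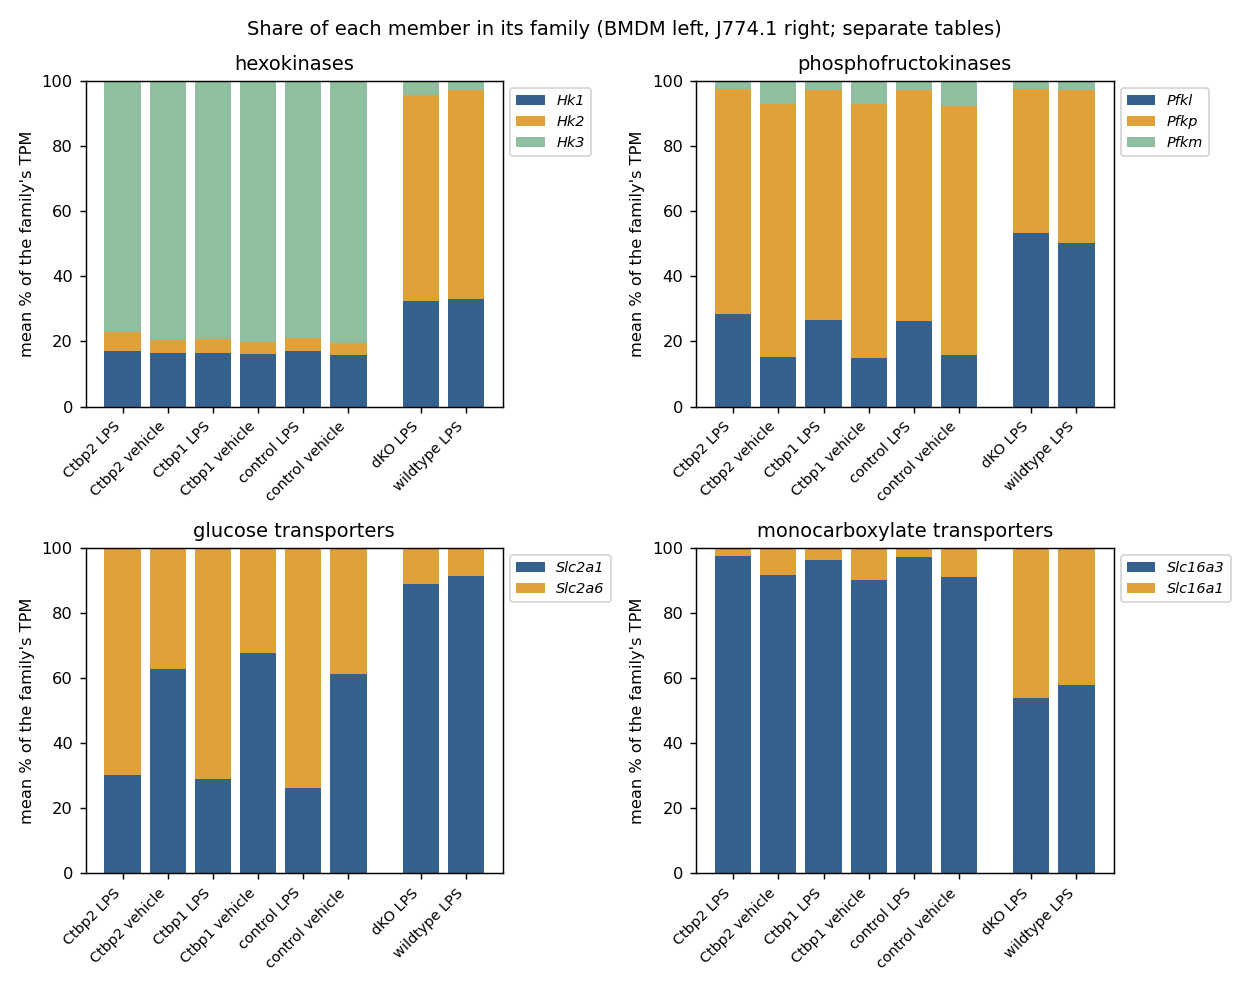
Mean share (%) of each gene in the summed TPM of its family, for 6 BMDM groups (left of each panel) and 2 J774.1 groups (right), 3 libraries a group. Hk3 makes up 77.1% or more of hexokinase TPM in each BMDM group and at most 4.27% in J774.1, and the Slc2a6 share is 69.9% to 73.8% in LPS and 32.2% to 38.9% in vehicle BMDMs.

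LPS changed most of the genes in control siRNA BMDMs, in both directions. The genes for both listed glucose transporters, lactate export and HIF-1α itself were higher. The hexokinases and most tested genes of the hypoxia target group were lower. From aldolase to lactate dehydrogenase, several enzymes fell on the TPM scale. Of these, Tpi1 and Pkm were still lower after the scaling described below. Pgam1 and Ldha were then not called, and Eno1, Aldoa and Gapdh were then higher. In limma's test across 7918 genes (adjusted p under 0.05), 27 of the 29 tested genes were called, 9 higher and 18 lower with LPS. That is 93.1% of the 29 genes, 31% higher and 62.1% lower, against 76.4% of all genes tested, 23.3% higher and 53.1% lower. Whether these shares differ was not tested. The median log2 fold change was −0.26 over the 29 genes and −0.21 over all genes tested. After median-of-ratios scaling, which sets the typical gene near 0 (median −0.0073 over all genes), the counts were 12 higher and 12 lower. Of all 7918 genes, 2853 were then higher and 2829 lower, so 50.2% of all calls were higher, against 30.5% on the TPM scale. Small falls are therefore given with their scaled value where it matters.

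**Figure D2:**
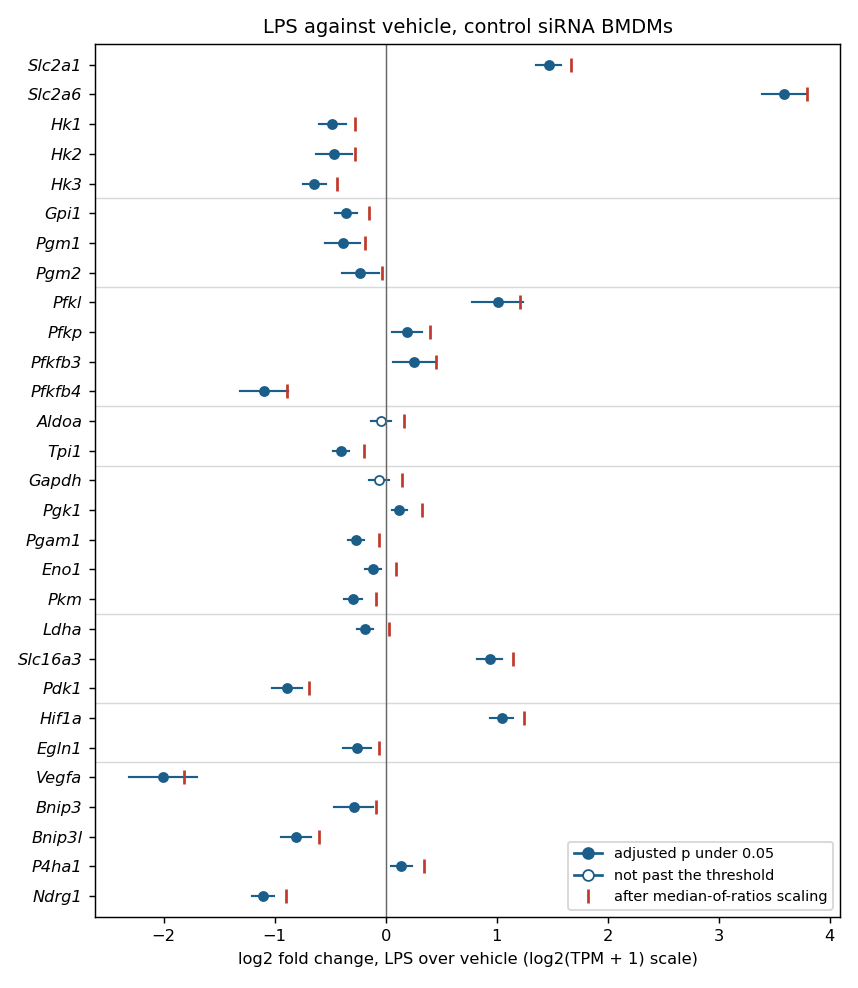
Log2 fold change of LPS over vehicle in control siRNA BMDMs for the 29 tested genes, grouped by role (grey lines), with 95% confidence intervals. Filled circles passed an adjusted p of 0.05, and red ticks give the fold change after median-of-ratios scaling. Slc2a6 at 3.59 lies farthest right and Vegfa farthest left.

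Both listed members of the glucose transporter family rose with LPS and all 3 hexokinases fell. Slc2a6, which encodes GLUT6, a lysosomal member of the glucose transporter family, had 409, 409 and 299 TPM in LPS libraries, against 31.1, 29.4 and 28.9 TPM in vehicle libraries. Replicate 4 was the lowest LPS library and still lay far above each vehicle library (log2 fold change 3.59 ± 0.094, adjusted p = 1.88e-15). Without it the log2 fold change was 3.74. Slc2a1, which encodes the main plasma membrane transporter GLUT1, had 136, 138 and 119.6 TPM in LPS libraries, against 45.2, 48.5 and 46.6 TPM in vehicle libraries. The groups did not overlap (log2 fold change 1.47 ± 0.052, adjusted p = 1.04e-13). Slc2a6 was thus the less abundant of the pair with vehicle and the more abundant with LPS, at 73.8% of their summed TPM with LPS and 38.9% with vehicle.

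The hexokinases phosphorylate glucose and hold it in the cell. Hk3, by level the main hexokinase here, had 189, 174 and 198 TPM in LPS libraries, against 300.0, 291 and 285 TPM in vehicle libraries, with no overlap (log2 fold change −0.64 ± 0.048, adjusted p = 2.28e-09). Hk1, the constitutive form, had 38.7, 43.4 and 39.4 TPM in LPS libraries, against 55, 59.5 and 56 TPM in vehicle libraries (log2 fold change −0.48 ± 0.057, adjusted p = 6.98e-07). For Hk2 the levels were 9.17, 9.73 and 9.25 TPM in LPS libraries, against 13.8, 13.7 and 12.6 TPM in vehicle libraries (log2 fold change −0.47 ± 0.077, adjusted p = 3.07e-05). The 3 hexokinases kept this direction and their calls after scaling. Of the sugar phosphate enzymes, Gpi1, which turns glucose phosphate into fructose phosphate, averaged 403 ± 8.55 TPM in LPS and 517 ± 13.8 TPM in vehicle libraries (SD, n = 3 each; log2 fold change −0.36 ± 0.046, adjusted p = 2.17e-06), and had −0.15 (adjusted p = 0.00887) after scaling. Pgm1, a phosphoglucomutase that links glycolysis to glycogen, had 19, 19.8 and 22.7 TPM in LPS libraries, against 27.6, 25.7 and 27.9 TPM in vehicle libraries (log2 fold change −0.39 ± 0.074, adjusted p = 0.000145). Neither pair of groups overlapped. The other phosphoglucomutase, Pgm2, fell by less (log2 fold change −0.23 ± 0.079, adjusted p = 0.0149), and its fold change was −0.03 (adjusted p = 0.751) after scaling.

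At the phosphofructokinase step, which commits sugar to glycolysis, the liver-type isoform rose and the regulators parted. Pfkl had 41.2, 44.5 and 36.8 TPM in LPS libraries, against 19.1, 18.2 and 22.1 TPM in vehicle libraries, with no overlap (log2 fold change 1.01 ± 0.11, adjusted p = 2.24e-07). Pfkp, the platelet type and the most abundant of the 3 in BMDMs, had 105, 120.4 and 104 TPM in LPS libraries, against 94.8, 99.2 and 93.4 TPM in vehicle libraries (log2 fold change 0.19 ± 0.063, adjusted p = 0.0119). The Pfkp call was lost without control LPS replicate 3 (adjusted p = 0.0876). Pfkm, the muscle type, was below the filter at 3.83, 3.94 and 4.54 TPM in LPS libraries, against 9, 10.1 and 9.39 TPM in vehicle libraries. With a filter of 1 TPM it was lower (log2 fold change −1.04 ± 0.09, adjusted p = 2.85e-08). The 3 isoforms thus did not move together, and Pfkl made up 26.4% of their summed TPM with LPS and 15.8% with vehicle.

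Pfkfb3 and Pfkfb4 encode kinase-phosphatases that set the level of the sugar phosphate which activates phosphofructokinase. Pfkfb3 had 18.3, 17.2 and 18.1 TPM in LPS libraries, against 14.5, 15.2 and 14.7 TPM in vehicle libraries (log2 fold change 0.26 ± 0.091, adjusted p = 0.0168). Pfkfb4 had 17.1, 17 and 22 TPM in LPS libraries, against 41.7, 38.3 and 42.5 TPM in vehicle libraries (log2 fold change −1.09 ± 0.1, adjusted p = 3.56e-08). The first rose a little and the second fell to under the level of every vehicle library.

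Between aldolase and pyruvate kinase, changes were small and depended on the scale. Tpi1, triose phosphate isomerase, had 282, 289 and 304 TPM in LPS libraries, against 384, 388 and 387 TPM in vehicle libraries (log2 fold change −0.40 ± 0.034, adjusted p = 8.8e-09). Its scaled value was −0.20 (adjusted p = 6.63e-06). Pkm, pyruvate kinase, averaged 1384 ± 97.2 TPM in LPS and 1696 ± 27.7 TPM in vehicle libraries (SD, n = 3 each; log2 fold change −0.29 ± 0.039, adjusted p = 2.79e-06). These 2 fell on the TPM scale, and after scaling Pkm had a log2 fold change of −0.086 (adjusted p = 0.0199). Pgk1, the kinase of the first ATP-forming step, had 437, 422 and 422 TPM in LPS libraries, against 400.5, 384 and 393 TPM in vehicle libraries, with no overlap (log2 fold change 0.12 ± 0.031, adjusted p = 0.00167). It was the only gene of this stretch that rose on both scales. Eno1, enolase, was lower on the TPM scale (log2 fold change −0.11 ± 0.034, adjusted p = 0.00645) but higher after scaling, at 0.10 (adjusted p = 0.0264). Pgam1, phosphoglycerate mutase, was lower on the TPM scale (log2 fold change −0.27 ± 0.033, adjusted p = 1.29e-06) and not called after scaling, at −0.061 (adjusted p = 0.163). Aldoa, aldolase, at 1604 ± 94.4 TPM in LPS and 1647 ± 33.9 TPM in vehicle libraries, was not called (log2 fold change −0.04 ± 0.043, adjusted p = 0.411), and had 0.17 (adjusted p = 0.00114) after scaling. Gapdh, which makes the NADH of glycolysis, at 1768 ± 116 TPM in LPS and 1844 ± 69.1 TPM in vehicle libraries, was not called either (log2 fold change −0.062 ± 0.042, adjusted p = 0.182), with 0.15 (adjusted p = 0.00205) after scaling. Aldoc, a second aldolase, averaged 7.93 ± 1.31 TPM in LPS and 10.4 ± 1.08 TPM in vehicle libraries.

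At the fate of pyruvate, the lactate exporter rose and the brake on pyruvate oxidation fell. Slc16a3, which encodes the lactate exporter MCT4, had 96.7, 94 and 87.2 TPM in LPS libraries, against 49.2, 49.1 and 45.4 TPM in vehicle libraries, with no overlap (log2 fold change 0.94 ± 0.054, adjusted p = 5.7e-11). Slc16a1, at 2.28, 2.26 and 3.16 TPM in LPS libraries, against 4.46, 4.88 and 4.71 TPM in vehicle libraries, was lower when genes down to 1 TPM were tested (log2 fold change −0.68 ± 0.1, adjusted p = 2.3e-05). The 2 exporters moved in opposite directions. Pdk1, a kinase that inactivates pyruvate dehydrogenase, had 31.8, 32.1 and 35.2 TPM in LPS libraries, against 61.3, 65.8 and 59.1 TPM in vehicle libraries (log2 fold change −0.89 ± 0.064, adjusted p = 1.18e-09). Pdk3, a related kinase, averaged 5.7 ± 0.489 TPM in LPS and 8.07 ± 0.222 TPM in vehicle libraries. Ldha, the main lactate dehydrogenase, averaged 534 ± 21 TPM in LPS and 606 ± 11.2 TPM in vehicle libraries. It was lower on the TPM scale (log2 fold change −0.18 ± 0.034, adjusted p = 0.000128) and near 0 after scaling, at 0.026 (adjusted p = 0.478). Ldhb averaged 2.55 ± 0.303 TPM in LPS and 5.51 ± 0.425 TPM in vehicle libraries.

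Hif1a rose with LPS. Of the 5 tested genes grouped as hypoxia targets, 4 fell on the TPM scale and P4ha1 rose, while Slc2a1 and Slc16a3, grouped above by their transport role, are known HIF-1 targets too and rose. Hif1a had 77.9, 79.6 and 72 TPM in LPS libraries, against 35.8, 37.6 and 36.2 TPM in vehicle libraries, with no overlap (log2 fold change 1.04 ± 0.048, adjusted p = 2.92e-12). Egln1, which encodes the hydroxylase PHD2 that marks HIF-1α, fell a little on the TPM scale (log2 fold change −0.26 ± 0.06, adjusted p = 0.00083) and had −0.058 (adjusted p = 0.381) after scaling. Egln3 was under 1 TPM in each library of both groups. Among the targets, Vegfa, the vascular growth factor, had 4.36, 4.17 and 5.68 TPM in LPS libraries, against 26.9, 17.8 and 21.7 TPM in vehicle libraries (log2 fold change −2.00 ± 0.15, adjusted p = 1.33e-09). Ndrg1, a stress-responsive gene, had 20.9, 21.1 and 20.3 TPM in LPS libraries, against 44.4, 47.7 and 45.3 TPM in vehicle libraries (log2 fold change −1.10 ± 0.047, adjusted p = 9.4e-13). Both fell far outside the spread of replicates and on both scales. Bnip3l, a mitophagy receptor, had 124, 127 and 109 TPM in LPS libraries, against 213, 212 and 204 TPM in vehicle libraries (log2 fold change −0.81 ± 0.063, adjusted p = 3.64e-09). Its relative Bnip3 fell less (log2 fold change −0.29 ± 0.083, adjusted p = 0.0049) and had −0.085 (adjusted p = 0.375) after scaling.

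The weakly expressed targets diverged. Ankrd37, an ankyrin-repeat gene induced by HIF-1α, had 0.625, 2.26 and 1.8 TPM in LPS libraries, against 17.4, 13.2 and 14.5 TPM in vehicle libraries, and was lower with the 1 TPM filter (log2 fold change −2.70 ± 0.22, adjusted p = 1.64e-08). Adm, which encodes the vasodilator peptide adrenomedullin, had 5.11, 4.42 and 1.35 TPM in LPS libraries and 0, 0.0731 and 0 TPM in vehicle libraries. It was the only one of these 8 targets that appeared with LPS from next to nothing, and its fold change has no fixed size because the vehicle level is listed at or near 0. P4ha1, a collagen prolyl hydroxylase subunit, had 53.5, 53.5 and 51.8 TPM in LPS libraries, against 46.5, 47.8 and 49.6 TPM in vehicle libraries (log2 fold change 0.14 ± 0.044, adjusted p = 0.009), a small rise. Ddit4, an inhibitor of mTORC1, averaged 1.2 ± 0.325 TPM in LPS and 1.28 ± 0.139 TPM in vehicle libraries, and these overlapped.

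In cells with either Ctbp siRNA, LPS libraries were compared with vehicle libraries of the same siRNA, and the transporters, Pfkl, Hif1a and Slc16a3 were again higher. With Ctbp2 siRNA 25 of 29 were called, 9 higher and 16 lower (78.7% of all genes called, 23.5% higher and 55.2% lower). With Ctbp1 siRNA all 29 were called, 9 higher and 20 lower (75.4% of all genes called, 24.5% higher and 50.9% lower). After scaling 13 genes were higher and 11 lower with Ctbp2 siRNA, where 36.7% of all genes were higher and 36.5% lower. With Ctbp1 siRNA 10 were then higher and 12 lower, where 35.8% of all genes were higher and 35.8% lower.

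With Ctbp2 siRNA, Slc2a6 had 379, 357 and 364 TPM with LPS, against 30.1, 27.5 and 26.7 TPM with vehicle (log2 fold change 3.66 ± 0.094, adjusted p = 1.34e-15). With Ctbp1 siRNA, Slc2a6 had 379, 321 and 343 TPM with LPS, against 22.9, 25.2 and 23.1 TPM with vehicle (log2 fold change 3.82 ± 0.094, adjusted p = 8.18e-16). No other gene of the 29 had a higher fold change in either. For Pfkl the levels with Ctbp2 siRNA were 52.6, 45.7 and 50.1 TPM with LPS, against 17.5, 20.5 and 18.7 TPM with vehicle (log2 fold change 1.34 ± 0.11, adjusted p = 5.11e-09). With Ctbp1 siRNA, Pfkl had 47.5, 35.6 and 43.5 TPM with LPS, against 16.2, 20.2 and 18.5 TPM with vehicle (log2 fold change 1.16 ± 0.11, adjusted p = 4.02e-08). Slc2a1 rose by 1.72 ± 0.052 with Ctbp2 siRNA (adjusted p = 1.12e-14) and by 1.48 ± 0.052 with Ctbp1 siRNA (adjusted p = 9.15e-14) on the log2 scale. Hif1a rose by 1.17 with Ctbp2 siRNA (adjusted p = 6.16e-13) and by 0.94 with Ctbp1 siRNA (adjusted p = 1.3e-11). Slc16a3 rose by 0.99 with Ctbp2 siRNA (adjusted p = 2.54e-11) and by 0.84 with Ctbp1 siRNA (adjusted p = 2.48e-10).

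Vegfa, Pfkfb4, Pdk1, Ndrg1 and Bnip3l were again lower. Vegfa had 4.87, 5.41 and 5.36 TPM with LPS, against 19.2, 17.7 and 20.4 TPM with vehicle in Ctbp2 siRNA cells (log2 fold change −1.69 ± 0.15, adjusted p = 1.14e-08). In Ctbp1 siRNA cells Vegfa had 5.56, 4.22 and 4 TPM with LPS, against 15.2, 19.6 and 19.1 TPM with vehicle (log2 fold change −1.76 ± 0.15, adjusted p = 7.68e-09). Pfkfb4 had a log2 fold change of −1.19 with Ctbp2 siRNA (adjusted p = 1.11e-08) and −1.16 with Ctbp1 siRNA (adjusted p = 1.74e-08). That of Pdk1 was −1.10 with Ctbp2 siRNA (adjusted p = 6.04e-11) and −0.98 with Ctbp1 siRNA (adjusted p = 3.22e-10). That of Ndrg1 was −1.09 with Ctbp2 siRNA (adjusted p = 9.55e-13) and −0.98 with Ctbp1 siRNA (adjusted p = 5.02e-12). Bnip3l had −0.85 with Ctbp2 siRNA (adjusted p = 1.71e-09) and −0.74 with Ctbp1 siRNA (adjusted p = 1.27e-08). Hk2 and Bnip3, which fell with LPS in control siRNA and Ctbp1 siRNA cells, had log2 fold changes of −0.11 (adjusted p = 0.208) and −0.0078 (adjusted p = 0.934) with Ctbp2 siRNA, and neither was called on the TPM scale. This depended on the scale. After scaling, Bnip3 had 0.22 (adjusted p = 0.0243) with Ctbp2 siRNA, −0.10 (adjusted p = 0.31) with Ctbp1 siRNA and −0.085 (adjusted p = 0.375) with control siRNA. Hk2 then had 0.12 (adjusted p = 0.209) with Ctbp2 siRNA, −0.16 (adjusted p = 0.0869) with Ctbp1 siRNA and −0.28 (adjusted p = 0.00541) with control siRNA.

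Whether Ctbp2 siRNA changed the LPS response was tested by the difference of the 2 responses, Ctbp2 siRNA minus control siRNA. No gene of the 29 was called (0.101% of all genes were, 0.0126% higher and 0.0884% lower), with 5 of 29 at an unadjusted p under 0.05 in the same limma fit, as were 654 of all 7918 genes (8.26%). The difference for Hk2 was 0.36 (95% confidence interval 0.13 to 0.59, adjusted p = 0.263), for Slc2a1 0.26 (0.10 to 0.41, adjusted p = 0.243), for Pfkl 0.34 (0.012 to 0.66, adjusted p = 0.576), for Bnip3 0.28 (0.03 to 0.53, adjusted p = 0.524) and for Pdk1 −0.21 (−0.40 to −0.019, adjusted p = 0.54). For Ctbp1 siRNA no gene was called (0.0126% of all genes were) and none of the 29 had an unadjusted p under 0.05, where 520 of all 7918 genes did (6.57%). The highest of its differences were 0.24 for Vegfa (−0.19 to 0.68) and 0.23 for Slc2a6 (−0.052 to 0.51).

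With LPS, Ctbp2 siRNA left 5 of the genes higher than control siRNA and none lower: a hexokinase, the main glucose transporter, the lactate exporter, HIF-1α and a glycolytic kinase. Of all genes tested 3.17% were called, 0.77% higher and 2.4% lower. With median-of-ratios scaling 7 of the 29 were higher and none lower, with Eno1 and Ldha added. Of all genes 1.57% were then higher and 1.02% lower, so 60.5% of all calls were higher, against 24.3% on the TPM scale. The median log2 fold change was 0.043 over the 29 genes and −0.052 over all genes tested. The folds are small, and the control libraries are shared with the Ctbp1 siRNA comparison. Summed dendritic cell markers were 158 to 172 TPM with Ctbp2 siRNA and 146 to 147 TPM with control siRNA in these LPS libraries (2 of 6 markers at 1 TPM or more in each), and their part in the results was not tested.

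Hk2 had 14.4, 11.9 and 12.5 TPM with Ctbp2 siRNA and LPS, against 9.17, 9.73 and 9.25 TPM with control siRNA and LPS. The lowest Ctbp2 siRNA library exceeded the highest control library (log2 fold change 0.42 ± 0.077, adjusted p = 0.00838). The Hk2 levels with Ctbp2 siRNA and LPS overlapped those of control siRNA vehicle cells, as Hk2 in vehicle had 13.8, 14.2 and 13.8 TPM with Ctbp2 siRNA and 13.8, 13.7 and 12.6 TPM with control siRNA. Its call held whichever library was left out (highest adjusted p = 0.0406). Slc2a1 had 166, 153 and 156 TPM with Ctbp2 siRNA and LPS, against 136, 138 and 119.6 TPM with control siRNA and LPS. These did not overlap (log2 fold change 0.27 ± 0.052, adjusted p = 0.0101), and the call was lost without Ctbp2 siRNA LPS replicate 1 (adjusted p = 0.0576).

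Slc16a3 had 113, 107 and 107 TPM with Ctbp2 siRNA and LPS, against 96.7, 94 and 87.2 TPM with control siRNA and LPS, again without overlap (log2 fold change 0.23 ± 0.054, adjusted p = 0.0264). Its call was lost without control LPS replicate 4 (adjusted p = 0.098) and without Ctbp2 siRNA LPS replicate 1 or 3. For Hif1a the levels were 84.9, 91.4 and 87.5 TPM with Ctbp2 siRNA and LPS, against 77.9, 79.6 and 72 TPM with control siRNA and LPS (log2 fold change 0.20 ± 0.048, adjusted p = 0.0324). Its call was lost without control LPS replicate 4 (adjusted p = 0.113) and without any 1 of the 3 Ctbp2 siRNA LPS libraries. Pgk1 had 471, 469 and 455 TPM with Ctbp2 siRNA and LPS, against 437, 422 and 422 TPM with control siRNA and LPS (log2 fold change 0.12 ± 0.031, adjusted p = 0.0416). In all 5 genes each Ctbp2 siRNA library was above each control library. The genes were picked by their calls on these same values, so this is no separate support. The Pgk1 call was the least firm, lost when any of 10 libraries was left out: control LPS replicates 3 and 4, Ctbp2 siRNA LPS replicates 1 and 3, Ctbp1 siRNA LPS replicate 4, Ctbp2 siRNA vehicle replicate 1, each Ctbp1 siRNA vehicle library and control vehicle replicate 4.

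Without control LPS replicate 4 the calls that remained were Hk2 (adjusted p = 0.0229) and Slc2a1 (adjusted p = 0.03), 2 of 29, and without Ctbp2 siRNA LPS replicate 1 there was 1, Hk2. When only the 6 libraries compared were fitted, none of the 28 genes then tested was called, with 4 of all 7344 genes called against 251 of 7918 in the fit of 18 libraries, and adjusted p = 0.175 for Hk2. The other 24 genes were not called. Among them Pfkl had 52.6, 45.7 and 50.1 TPM with Ctbp2 siRNA and LPS, against 41.2, 44.5 and 36.8 TPM with control siRNA and LPS (log2 fold change 0.27 ± 0.11, adjusted p = 0.174). Bnip3 had 31.2, 28.4 and 29.1 TPM with Ctbp2 siRNA, against 24.5, 24.1 and 25.6 TPM with control siRNA (log2 fold change 0.25 ± 0.083, adjusted p = 0.114). Pdk1 had 26.5, 30.5 and 28.8 TPM with Ctbp2 siRNA, against 31.8, 32.1 and 35.2 TPM with control siRNA (log2 fold change −0.20 ± 0.064, adjusted p = 0.0916), the one of these 3 with the lower values under Ctbp2 siRNA. For Slc2a6, the gene with the steepest LPS response, the fold change was −0.0081 (95% confidence interval −0.21 to 0.19).

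**Figure D3:**
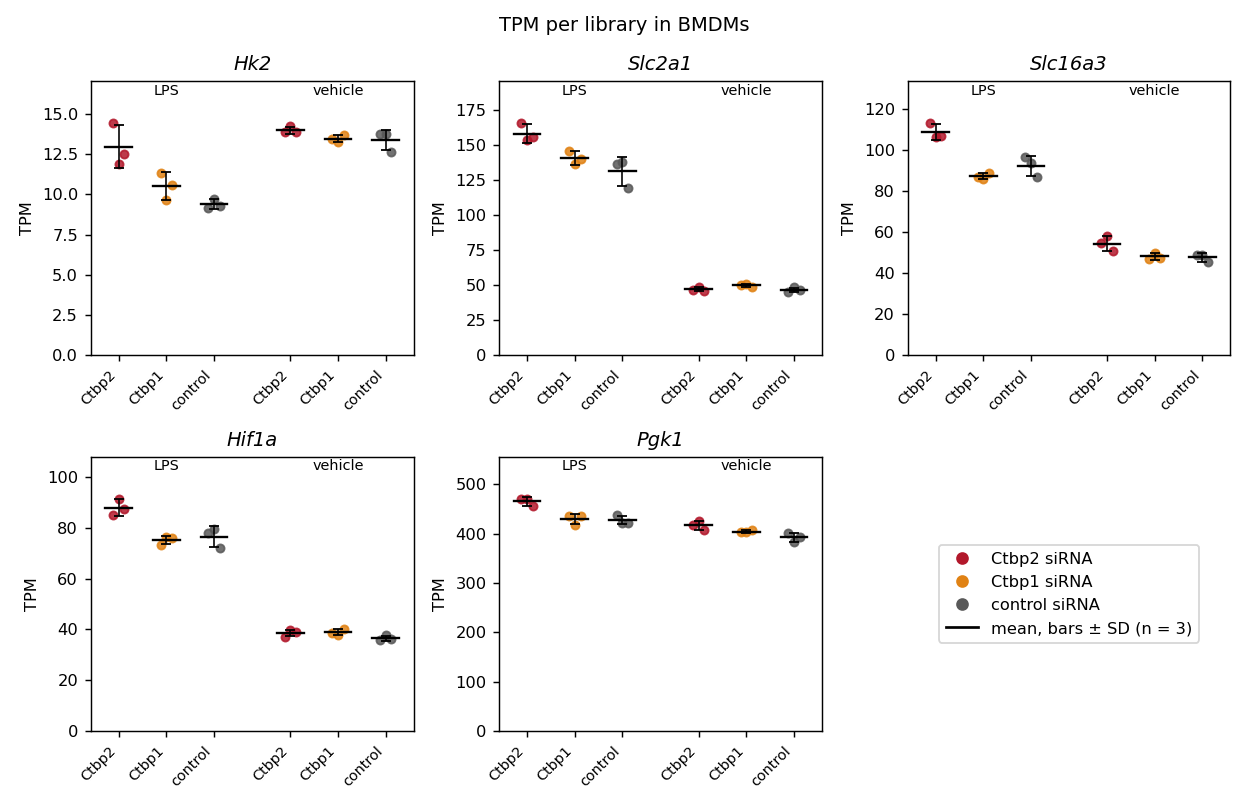
TPM per library in BMDMs of the 5 genes called with Ctbp2 siRNA in LPS, with LPS groups left and vehicle groups right in each panel. Points are libraries, lines means and bars ± SD (n = 3). With LPS each Ctbp2 siRNA point lies above each control point, for Hk2 at 11.9 TPM or more against 9.73 TPM or less. The genes were picked by their calls on these same values.

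In vehicle, no gene of the 29 passed the threshold with Ctbp2 siRNA (1.02% of all genes did, 0.505% higher and 0.518% lower), with 4 of 29 at an unadjusted p under 0.05 in limma, near the share of all genes (1052 of 7918, 13.3%). Slc16a3 had 54.8, 58 and 50.8 TPM with Ctbp2 siRNA and vehicle, against 49.2, 49.1 and 45.4 TPM with control siRNA and vehicle (log2 fold change 0.18 ± 0.054, adjusted p = 0.12). For Pgk1 the levels were 416, 426 and 408 TPM with Ctbp2 siRNA, against 400.5, 384 and 393 TPM with control siRNA (log2 fold change 0.087 ± 0.031, adjusted p = 0.2). Neither gene's groups overlapped, and neither passed the threshold. The fold change of Hif1a in vehicle was 0.078 (95% confidence interval −0.024 to 0.18), of Hk2 0.059 (−0.10 to 0.22) and of Slc2a1 0.015 (−0.10 to 0.13).

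**Figure D4:**
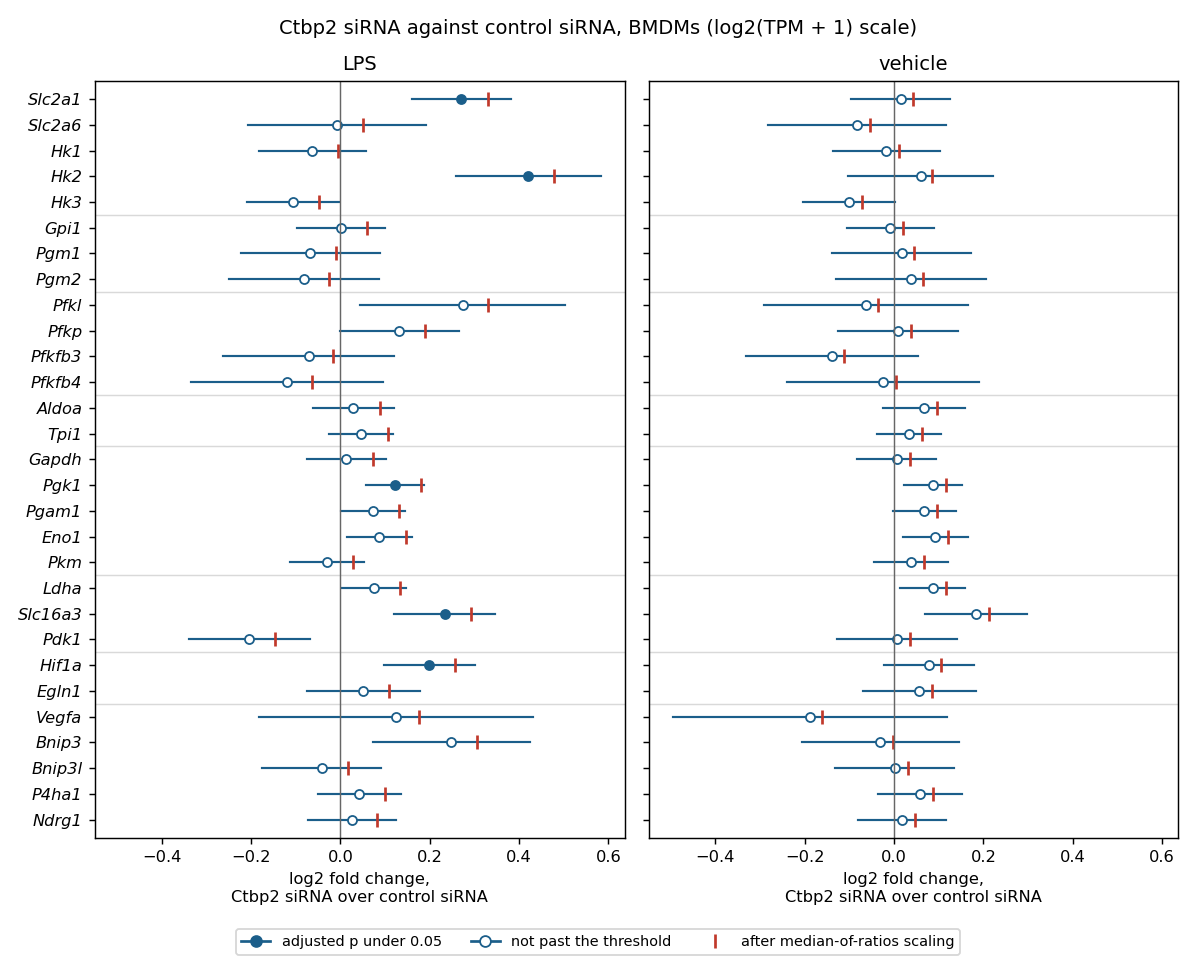
Log2 fold change of Ctbp2 siRNA over control siRNA for the 29 tested genes with LPS (left) and vehicle (right), with 95% confidence intervals. Filled circles passed an adjusted p of 0.05, and red ticks give values after median-of-ratios scaling. The 5 filled circles are all in the LPS panel and right of 0, from 0.12 for Pgk1 to 0.42 for Hk2.

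Ctbp1 siRNA left no gene of the 29 past the threshold, with LPS (0.152% of all genes called, 0.0253% higher and 0.126% lower) or with vehicle (0.215% called, 0.0505% higher and 0.164% lower), with 1 of 29 at an unadjusted p under 0.05 in each limma comparison. Of all 7918 genes, 635 (8.02%) were so with LPS and 811 (10.2%) with vehicle. The authors' deposited table also called none in either. With LPS the genes called under Ctbp2 siRNA had log2 fold changes under Ctbp1 siRNA of 0.15 for Hk2 (95% confidence interval −0.016 to 0.31), 0.10 for Slc2a1 (−0.0077 to 0.21), −0.081 for Slc16a3 (−0.19 to 0.033), −0.024 for Hif1a (−0.13 to 0.078) and 0.0086 for Pgk1 (−0.057 to 0.074). With vehicle, Slc2a6 had 22.9, 25.2 and 23.1 TPM with Ctbp1 siRNA, against 31.1, 29.4 and 28.9 TPM with control siRNA (log2 fold change −0.32 ± 0.094, adjusted p = 0.196). These did not overlap, and the difference was called when control LPS replicate 4 was left out (adjusted p = 0.0266). Ankrd37 had 8.97, 8.5 and 9.45 TPM with Ctbp1 siRNA and vehicle, against 17.4, 13.2 and 14.5 TPM with control siRNA and vehicle. With Ctbp2 siRNA and vehicle it had 9.49, 12 and 11.9 TPM. Ankrd37 was thus lower in all 6 vehicle libraries with a Ctbp siRNA than in the 3 with control siRNA, which both comparisons share. Below the filter of the fit of 18 libraries, it was called with Ctbp1 siRNA when only the 6 libraries compared were fitted (−0.68, adjusted p = 0.0411), and not with a 1 TPM filter on all 18 (adjusted p = 0.334).

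The 2 siRNAs were also compared directly. With LPS, 4 genes were higher with Ctbp2 siRNA than with Ctbp1 siRNA and none lower, where 6.79% of all genes were called, 1.31% higher and 5.48% lower. Slc16a3 had 113, 107 and 107 TPM with Ctbp2 siRNA, against 87, 86.2 and 89.1 TPM with Ctbp1 siRNA (log2 fold change 0.31 ± 0.054, adjusted p = 0.00458), and its call held in every fit that left out 1 library. Hif1a had 84.9, 91.4 and 87.5 TPM with Ctbp2 siRNA, against 73.2, 76.2 and 76.1 TPM with Ctbp1 siRNA (log2 fold change 0.22 ± 0.048, adjusted p = 0.0144), a call lost without Ctbp2 siRNA LPS replicate 3. Groups of both genes stood clear of each other. Pgk1 had 471, 469 and 455 TPM with Ctbp2 siRNA, against 436, 418 and 436 TPM with Ctbp1 siRNA (log2 fold change 0.11 ± 0.031, adjusted p = 0.0387). Hk2 had 14.4, 11.9 and 12.5 TPM with Ctbp2 siRNA, against 11.3, 9.64 and 10.6 TPM with Ctbp1 siRNA (log2 fold change 0.27 ± 0.077, adjusted p = 0.0429). These 2 calls were less firm. That of Pgk1 was lost when any 1 of 9 libraries was left out: Ctbp2 siRNA LPS replicates 1 and 3, each Ctbp1 siRNA LPS library, Ctbp2 siRNA vehicle replicate 1, Ctbp1 siRNA vehicle replicates 3 and 4, or control vehicle replicate 4. That of Hk2 was lost without any 1 of 13: Ctbp2 siRNA LPS replicates 1 and 4, Ctbp1 siRNA LPS replicates 3 and 4, or any of the 9 vehicle libraries. Slc2a1 had a log2 fold change of 0.17 (adjusted p = 0.0627). After scaling 7 genes were higher, Slc2a1, Aldoa and Ldha being added, where 2.65% of all genes were higher, and 63.4% of all calls were higher, against 19.3% on the TPM scale. With vehicle no gene of the 29 was called (0.947% of all genes were, 0.518% higher and 0.429% lower), with 3 of 29 at an unadjusted p under 0.05 in limma, near the share of all genes (944 of 7918, 11.9%).

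In J774.1 cells with LPS, the dKO libraries differed from wildtype in 13 of the 29 genes. The glucose transporter Slc2a1 and Hk2 were not called, and Hif1a and the lactate exporter Slc16a3 were lower in dKO libraries. There were 5 genes higher and 8 lower, against 25.4% higher and 16.6% lower among all genes tested (42% called). The median log2 fold change was −0.018 over the 29 genes and 0.029 over all genes tested. After scaling the counts were 4 higher and 12 lower, where 22% of all genes were higher and 21% lower. Summed dendritic cell markers were 5.99 to 9.02 TPM in dKO and 0.856 to 1.68 TPM in wildtype libraries (1 and 0 of 6 markers at 1 TPM or more), and their part in the results was not tested. Since Ctbp2 transcript was only partly lower, these are differences between libraries labelled dKO and wildtype.

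Of the genes higher in dKO libraries, Aldoc had 20.7, 21.8 and 23 TPM, against 15.2, 13.1 and 16.4 TPM in wildtype libraries (log2 fold change 0.53 ± 0.086, adjusted p = 0.0014). Pdk1 had 27.4, 29.7 and 28.1 TPM in dKO libraries, against 23.5, 21.4 and 20.1 TPM in wildtype libraries (log2 fold change 0.38 ± 0.067, adjusted p = 0.0022). Pgm1 had 19.6, 20.6 and 22.8 TPM in dKO libraries, against 14.7, 16.3 and 16.9 TPM in wildtype libraries (log2 fold change 0.37 ± 0.076, adjusted p = 0.00467). The dKO and wildtype values of these 3 genes did not overlap. Slc2a6 had 22.3, 26.8 and 23.9 TPM in dKO libraries, against 19.2, 19.5 and 18.2 TPM in wildtype libraries (log2 fold change 0.34 ± 0.073, adjusted p = 0.00597). Gpi1 had 491, 499.6 and 466 TPM in dKO libraries, against 456, 446 and 461 TPM in wildtype libraries (log2 fold change 0.10 ± 0.032, adjusted p = 0.0423). The Gpi1 call was lost after scaling (adjusted p = 0.149) and without any 1 library other than dKO replicate 3. Among genes under the 10 TPM filter, Ndrg1 had 15.3, 12.8 and 14.4 TPM in dKO libraries, against 5.02, 5.28 and 5.33 TPM in wildtype libraries, and with a 1 TPM filter it was higher (log2 fold change 1.29 ± 0.082, adjusted p = 1.55e-05), more than any tested gene of the list. Adm had 8.45, 6.23 and 6.37 TPM in dKO libraries, against 1.93, 3.85 and 3.49 TPM in wildtype libraries (log2 fold change 0.99 ± 0.2, adjusted p = 0.00737). Hk3 had 5.8, 5.74 and 6.52 TPM in dKO libraries, against 4.4, 4.3 and 4.11 TPM in wildtype libraries (log2 fold change 0.41 ± 0.086, adjusted p = 0.00803). These 3 low genes also did not overlap between the groups.

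Of the genes lower in dKO libraries, Vegfa had 12.1, 13 and 12.3 TPM, against 20.6, 19.9 and 20.5 TPM in wildtype libraries (log2 fold change −0.66 ± 0.057, adjusted p = 3.05e-05). Pfkfb3 had 14.9, 15.4 and 15.4 TPM in dKO libraries, against 21.2, 22.4 and 21.8 TPM in wildtype libraries (log2 fold change −0.49 ± 0.054, adjusted p = 0.000135). Slc16a3 had 169, 179 and 184 TPM in dKO libraries, against 205, 214 and 216 TPM in wildtype libraries (log2 fold change −0.25 ± 0.039, adjusted p = 0.000995). Each dKO value of these 3 lay below each wildtype value. Tpi1 had 456, 479.7 and 504 TPM in dKO libraries, against 571, 557 and 575 TPM in wildtype libraries (log2 fold change −0.24 ± 0.038, adjusted p = 0.00107). Ldha had 1245, 1327 and 1369.7 TPM in dKO libraries, against 1506, 1462 and 1551 TPM in wildtype libraries (log2 fold change −0.20 ± 0.039, adjusted p = 0.00366). Gapdh had 2207, 2169.7 and 2195 TPM in dKO libraries, against 2454, 2353 and 2430.1 TPM in wildtype libraries (log2 fold change −0.14 ± 0.023, adjusted p = 0.00171). The 3 enzymes fell by less than the first 3 genes but again without overlap in TPM, and their calls held after scaling.

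Hif1a had 69.2, 70.6 and 66.8 TPM in dKO libraries, against 72.4, 75.2 and 76.3 TPM in wildtype libraries (log2 fold change −0.11 ± 0.04, adjusted p = 0.0486). This call was lost without dKO replicate 1 or 3 or wildtype replicate 2 or 3. Eno1 had 755, 799 and 785 TPM in dKO libraries, against 840.4, 846 and 839 TPM in wildtype libraries (log2 fold change −0.11 ± 0.027, adjusted p = 0.011). In this table its near-identical copy Eno1b carried about as much, 772 TPM in dKO and 825 TPM in wildtype libraries, while in BMDM groups Eno1b averaged under 1 TPM. The authors' counting may have split enolase reads between these 2 entries in J774.1, so the Eno1 value is uncertain, and the sum of both was 1551 ± 44.4 TPM in dKO and 1667 ± 20.6 TPM in wildtype libraries (log2 fold change −0.10 ± 0.027, adjusted p = 0.0143). Hk2 had 89.1, 89.1 and 90.1 TPM in dKO libraries, against 89.5, 99.6 and 99.4 TPM in wildtype libraries (log2 fold change −0.10 ± 0.047, adjusted p = 0.116). Slc2a1 had 178, 207 and 196 TPM in dKO libraries, against 194, 196 and 199 TPM in wildtype libraries (log2 fold change −0.018 ± 0.051, adjusted p = 0.801). Values of these 2 overlapped between the groups, and Hk2 was called lower after scaling (adjusted p = 0.0405). Pkm, the most abundant of the genes at 4485 ± 145 TPM in dKO and 4304 ± 81.6 TPM in wildtype libraries, was not called (log2 fold change 0.059 ± 0.028, adjusted p = 0.123).

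**Figure D5:**
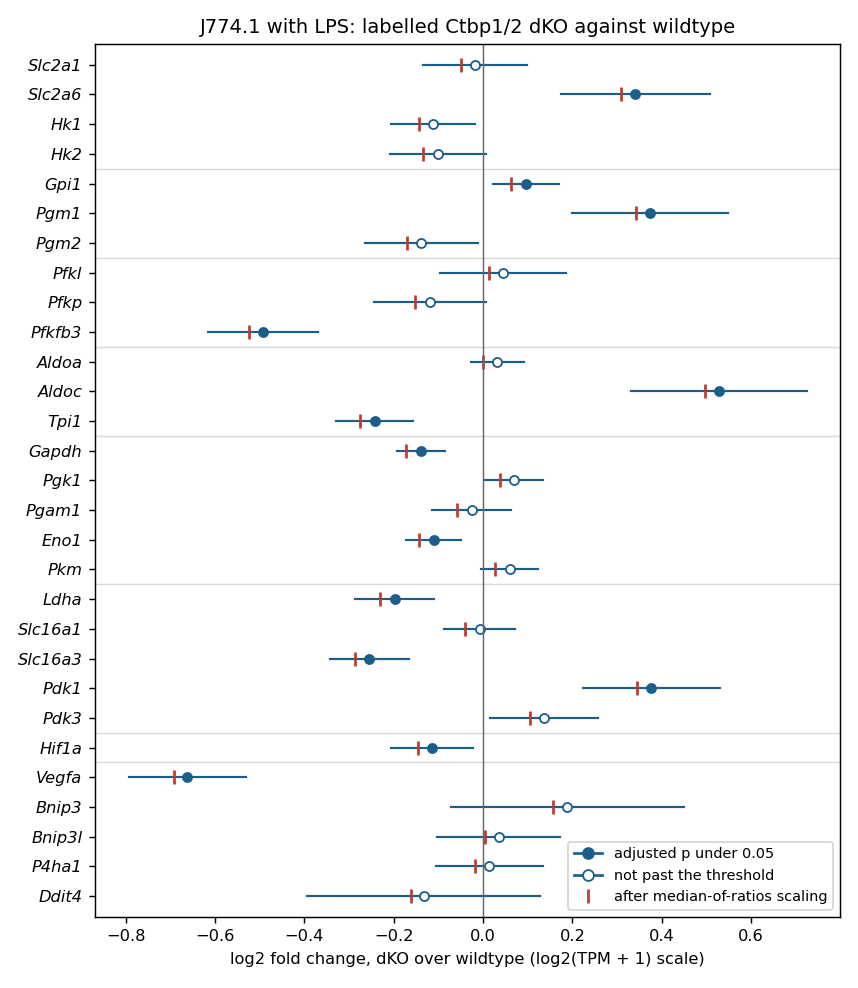
Log2 fold change of libraries labelled Ctbp1/2 dKO over wildtype in J774.1 cells with LPS, for the 29 tested genes, with 95% confidence intervals. Filled circles passed an adjusted p of 0.05, and red ticks give values after median-of-ratios scaling. Vegfa at −0.66 and Pfkfb3 at −0.49 lie farthest left and Aldoc at 0.53 farthest right.

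Genes of neighbouring pathways were read from further lists. With LPS in control siRNA BMDMs, 7 of 9 tested genes of the cytosolic NADH shuttles were lower and 1 was higher, Gpd2, the mitochondrial glycerol phosphate dehydrogenase (log2 fold change 2.66 ± 0.094, adjusted p = 8.94e-14). Got1, a cytosolic transaminase of the malate-aspartate shuttle, was among the lower ones (log2 fold change −1.15 ± 0.059, adjusted p = 1.41e-11). Of the pyruvate entry genes 5 of 8 were lower and 1 higher, and Pdp1, the phosphatase that reactivates pyruvate dehydrogenase and so opposes Pdk1, fell as well (log2 fold change −1.72 ± 0.096, adjusted p = 3.78e-11). Of the pentose phosphate genes 5 of 8 were lower and 1 higher, and of the glycogen genes 5 of 6 were lower and 1 higher. Of other hypoxia factors and targets 4 of 12 were higher and 7 lower, among the lower ones Mxi1, an antagonist of MYC (log2 fold change −1.49 ± 0.061, adjusted p = 5.58e-13). Of other glycolytic isoforms 2 of 3 were lower, among them the transporter Slc2a8 (log2 fold change −1.07 ± 0.093, adjusted p = 1.64e-08). Lower calls thus outnumbered higher ones in each list, as they did among all genes tested (53.1% lower and 23.3% higher).

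With Ctbp2 siRNA and LPS, the further lists held 2 called genes, where 3.17% of all genes were called (0.77% higher and 2.4% lower). Bhlhe40, a hypoxia-induced repressor and 1 of 12 tested in its list, was higher (log2 fold change 0.61 ± 0.12, adjusted p = 0.0131). Tkt, transketolase of the pentose phosphate pathway and 1 of 8 tested in its list, was lower (log2 fold change −0.28 ± 0.037, adjusted p = 0.000722). Tkt was also lower with Ctbp2 siRNA in vehicle (log2 fold change −0.21 ± 0.037, adjusted p = 0.0109), as was the enolase Eno2 (log2 fold change −0.51 ± 0.12, adjusted p = 0.0493). Of all genes 1.02% were called there. No gene of these lists was called with Ctbp1 siRNA against control, where 0.152% of all genes were called with LPS and 0.215% with vehicle. In J774.1 dKO libraries 5 of 8 pentose phosphate genes were higher and none lower, with Taldo1, transaldolase (log2 fold change 0.82 ± 0.031, adjusted p = 2.19e-07), H6pd (log2 fold change 0.83 ± 0.074, adjusted p = 3.66e-05) and G6pdx, the enzyme of the first step (log2 fold change 0.50 ± 0.036, adjusted p = 1.06e-05). Of the glycogen genes 5 of 6 were higher, and of the NADH shuttle genes 6 of 9, with none lower in either. Of the pyruvate entry genes 3 of 7 were higher and 1 lower, Pdha1, a subunit of pyruvate dehydrogenase (log2 fold change −0.34 ± 0.049, adjusted p = 0.000695). Of other hypoxia factors and targets 3 of 12 were higher and 6 lower, with Mxi1 higher here (log2 fold change 0.33 ± 0.067, adjusted p = 0.00483). The muscle enolase Eno3 was the most raised gene of the further lists (log2 fold change 1.60 ± 0.056, adjusted p = 1.48e-07). For all genes tested in this comparison, 25.4% were higher and 16.6% lower.

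The authors' deposited table, made with DESeq2 and read at an adjusted p under 0.05, gave the same 5 genes higher with Ctbp2 siRNA in LPS, and 4 more, Tpi1, Ldha, Eno1 and Bnip3, with none lower. In the authors' deposited table the log2 fold change was 0.54 for Hk2, 0.34 for Slc2a1, 0.31 for Slc16a3, 0.27 for Hif1a and 0.20 for Pgk1. For vehicle the authors' deposited table had Ldha and Eno1 higher with Ctbp2 siRNA. For LPS in control siRNA cells the authors' deposited table had 15 rows higher and 13 lower, and 19 of these rows were also called in the limma fit, 17 with the same sign. The 2 that differed were Ldha and Eno1, higher in the authors' deposited table and lower here on the TPM scale. The other 8 of the 27 genes called in limma, all lower here, were not called in the authors' deposited table: Hk2, Gpi1, Pgm1, Pgm2, Pgam1, Pkm, Egln1 and Bnip3. In the authors' deposited table their adjusted p ran between 0.108 for Hk2 and 0.857 for Bnip3. Their log2 fold changes there were above 0 for Pgam1 (0.059), Pgm2 (0.090), Pkm (0.033), Egln1 (0.057) and Bnip3 (0.030). They were below 0 for Hk2 (−0.18), Gpi1 (−0.029) and Pgm1 (−0.076). For LPS in Ctbp2 siRNA cells, 2 of the 18 shared calls (Ldha and Eno1) had the opposite sign in the authors' deposited table. For LPS in Ctbp1 siRNA cells, 4 of the 21 shared calls (Aldoa, Gapdh, Ldha and Eno1) had the opposite sign in the authors' deposited table. For the dKO libraries the authors' deposited table had 7 genes higher and 14 lower, and 12 of these were also called in the limma fit, each with the same sign.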

How the data were processed

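RNA was sequenced from an unstranded mRNA kit on either of a pair of instruments that are not tied to samples, per the labels' protocols, so an instrument effect cannot be checked. The authors deposited TPM per library, gene-level and scaled on mm39 per the file headers of the BMDM table. Per the submitters' processing notes, FastQC, Salmon 1.9.0, DESeq2 1.44.0 and R 4.4.1 were used, and mm39, GRCm38 and GRCm39 are named. The authors' deposited tables also hold mean normalized counts (a signal over samples), log2 fold changes and p-values from DESeq2, used here only where the authors' deposited table is named. TPM keeps no depth, so counting error per library is unknown. Identical repeated rows of the J774.1 table (190 identifiers) were read once.

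The deposited TPM were tested as log2(TPM + 1) with limma 3.58.1 in R 4.3.3 (lmFit, eBayes with trend and robust estimation) over genes averaging 10 TPM or more: 7918 in 1 fit of the 18 BMDM libraries and 7782 in 1 fit of the 6 J774.1 libraries. The threshold for a call was an adjusted p under 0.05, by Benjamini and Hochberg, over every gene of a comparison. There were 12 comparisons, among them the interactions of siRNA with LPS. The ± after a log2 fold change is its standard error (SE), and after a mean TPM its SD. Overlap of groups was read from the TPM of single libraries, and its share over all genes was not counted. For a called gene it rests on the same values as the call and is no separate support. Fold changes on this scale understate those of low genes. The script was tested on simulated data. Alternatives were a pseudocount of 0.1, a filter of 1 TPM or none, median-of-ratios scaling, no trend or robust estimation, a replicate block, only the libraries of the groups compared and leaving out each library. Summing Eno1 and Eno1b was added after the data were seen. The members and lists were chosen with earlier results of these data known. Full values were given to at most 10 called genes in each direction, by size, for LPS in control siRNA BMDMs and for the dKO, and 5 for the other comparisons, with the same genes in the other siRNA or condition. From each further list at most 3 called genes per comparison were eligible, and not every one is named. The uncalled and weakly expressed genes named beside them were chosen after their values were seen. Promoters were searched for ACGTG and GCGTG on both strands.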

Additional observations from a re-analysis of the deposited data

How the results depend on the processing

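Counts are of the listed genes tested, 29 unless given otherwise. For Ctbp2 siRNA against control in LPS, 5 genes were called, 2 of 39 rows with no filter on low values, 0 of 28 with only the 6 libraries compared (where 4 of all 7344 genes were called), and 1 to 5 when 1 library was left out. For Ctbp2 siRNA against Ctbp1 siRNA in LPS, 4 genes were called, 2 of 39 rows with no filter, 7 after median-of-ratios scaling, 1 of 28 with only the 6 libraries compared, and 2 to 5 when 1 library was left out. For Ctbp1 siRNA against control in vehicle, none was called, 1 of 30 with only the 6 libraries compared, and 0 to 1 when 1 library was left out. The fit of 6 libraries has fewer samples for its spread. The cause of the shifts, in that fit and in the others, was not tested. Leaving out 1 library gave 26 to 28 calls for LPS in control siRNA cells, 26 to 29 in Ctbp1 siRNA cells, 24 to 25 in Ctbp2 siRNA cells and 12 to 14 in the dKO. It gave 0 for the interactions, for either siRNA in the remaining comparisons with control, and for both siRNAs in vehicle.

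Of 61 results on single called genes, 51 kept their call whichever library was left out and 10 lost it at least once. With only the groups compared, run for BMDMs, 8 calls ended and 40 held. Calls of the 61 ended in 7 with no filter, 5 without trend and robust estimation, 3 with the 1 TPM filter, 2 with the replicate block, 1 after scaling and 0 with the pseudocount of 0.1. Outside these 61, scaling ended the LPS calls of 5 genes in control siRNA cells, 7 in Ctbp1 siRNA cells and 4 in Ctbp2 siRNA cells, and turned Eno1 from lower to higher in each.

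The labels do not say what a replicate number shares, so the main fit did not pair samples by number. In BMDMs, 21 of 45 pairs with the same number correlated over 0.1 (median r = 0.090, −0.15 to 0.32), against 4 of 90 with different numbers (median r = −0.029). All 18 libraries had a higher mean r with their own number, and 17 of 18 correlated best with one of their own number. This is a hint of a shared replicate effect from the data, not the design, which the main fit leaves out. In J774.1 cells it was 1 of 3 pairs against 0 of 6, and 4 of 6 libraries. With a replicate block the counts were 5 for Ctbp2 siRNA against control in LPS, 5 for the 2 siRNAs compared in LPS and 11 for the dKO, and were the same as without it in the other comparisons. Over all genes the block gave 457 calls against 251 without it for Ctbp2 siRNA against control in LPS, and 914 against 538 for the 2 siRNAs compared in LPS. The calls it ended, both in the dKO, were Gpi1 (adjusted p = 0.0843) and Hif1a (adjusted p = 0.0884). TPM without counts limits what can be said of genes near 0, and groups of 3 limit the rest.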
